A study of Homo sapiens with 4 samples.

Results

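The genes described here encode the MHC class II presentation machinery and the costimulatory ligands CD80 and CD86. They were taken by gene symbol from the deposited count table: CIITA, CD74, HLA-DRA, HLA-DRB1, HLA-DPA1, HLA-DPB1, HLA-DMA, HLA-DMB, CD80 and CD86, which is 10 of its 20348 genes. All 10 were found. RNA was measured by poly-A sequencing in K562, an established human line from a chronic myeloid leukemia with erythroid features, and in THP-1, an established human line from an acute monocytic leukemia. Per the study's methods, each line received 100 nM periplocin, a cardiac glycoside from the bark of Periploca sepium, or DMSO for 72 h. The library names also say DMSO, whereas the sample titles call the controls blank. No other agent or genetic change is named for any group, and the comparisons address how these genes differ between the leukemia lines and after periplocin in each.

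MHC class II molecules are pairs of an alpha and a beta chain that present peptides from the endosomal pathway to CD4+ T cells. CIITA is the coactivator on which transcription of the class II genes depends, CD74 is the invariant chain that guides new class II molecules to endosomes, and HLA-DM exchanges the remaining CD74 fragment for peptide. CD80 and CD86 are surface ligands of CD28 and CTLA4 on T cells, and monocytes that mature into macrophages or dendritic cells are known to display both class II and CD86.

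Class II promoters are known for an X box, bound by the RFX complex, followed by a Y box, bound by NF-Y, on which CIITA assembles. The RefSeq promoter table (GRCh38.p14) has an entry for 8 of the 10 genes, without HLA-DRA and CIITA, and for 7 of 9 further class II chains. The 250 bases upstream of each start were searched on both strands for ACNGATG, taken here as X letters, and for ATTGG, taken as Y letters. The letters were chosen by reading class II sequences, so their presence in those promoters is not independent of the choice. The X and Y letters do not share bases with each other in the stretches shown. Among 35116 promoters of the table, 6.35% hold the X letters and 32% the Y letters on either strand, and 33 (0.094%) hold X before Y on the sense strand with 10 to 40 bases between them. HLA-DRB1 and HLA-DMA are among these 33, as are HLA-DRB5 and HLA-DQB1. These stretches are shown because they carry both letters in the class II order, in genes whose counts were at or near 0 in K562 and above the floor of 3 counts in THP-1. The capitals mark the X letters and then the Y letters, 5′ to 3′ on the minus strand of chromosome 6.

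HLA-DRB1, chr6:32589880-32589933: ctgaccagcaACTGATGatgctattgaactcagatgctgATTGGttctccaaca
HLA-DMA, chr6:32953162-32953216: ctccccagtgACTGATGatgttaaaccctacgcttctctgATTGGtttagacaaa
HLA-DRB5, chr6:32530363-32530416: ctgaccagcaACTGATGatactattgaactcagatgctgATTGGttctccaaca
HLA-DQB1, chr6:32666731-32666784: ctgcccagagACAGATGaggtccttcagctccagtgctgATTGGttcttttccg

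No annotated exon lies in these stretches. The letters stand 22 bases apart in HLA-DRB1, HLA-DRB5 and HLA-DQB1 and 23 bases apart in HLA-DMA. The stretch of HLA-DRB5 differs from that of HLA-DRB1 at 1 of 54 positions, and the stretch of HLA-DQB1 differs from it at 18. The X letters of HLA-DRB1 begin 75 bases before the start, at -75, and those of HLA-DMA at -109. HLA-DMB holds X letters at -84 with Y letters only on the other strand at -22, and CD74 holds both only on the other strand, at -209 and -53. HLA-DPB1 holds Y letters without X letters. Neither HLA-DPA1 nor CD80 holds either set of letters, and CD86 holds X letters on the other strand upstream of 1 of its 2 starts. A match is a description of the letters and not evidence that a factor binds there, and a missing match says only that these letters are absent from this window.

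**Figure D1:**
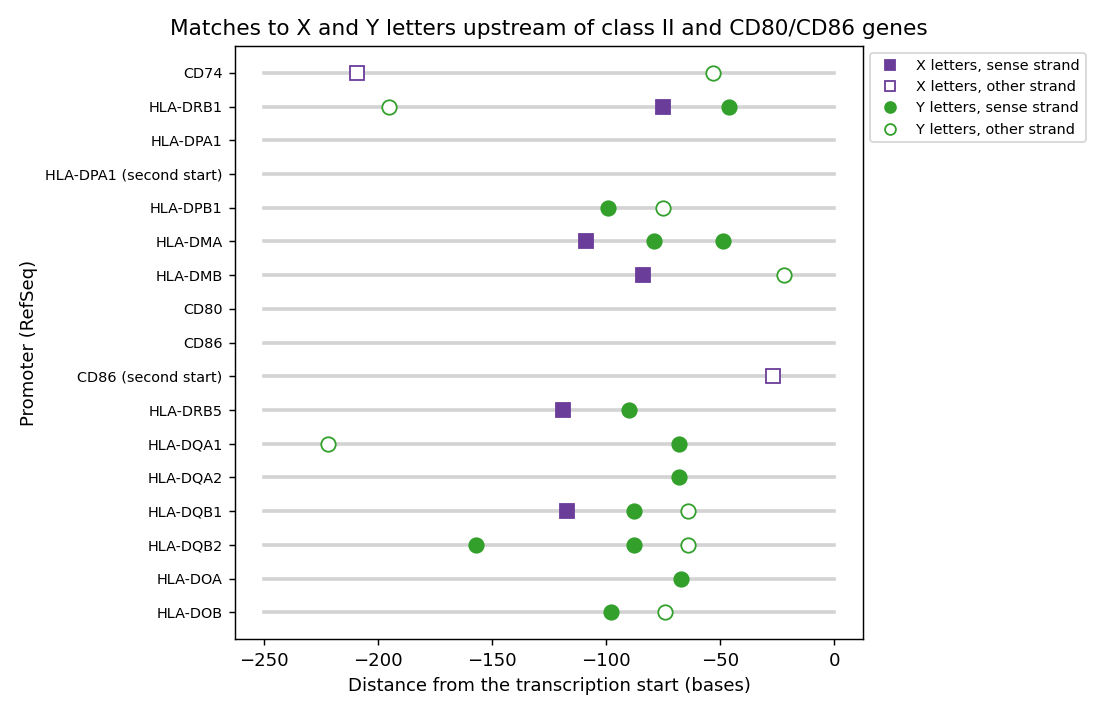
Positions of the X letters (squares) and Y letters (circles) in the 250 bases before each RefSeq start, with the distance from the start in bases on the horizontal axis and 1 promoter per line. Filled symbols are on the sense strand and open symbols on the other strand. In HLA-DRB1 the X letters at -75 are followed by Y letters at -46, and in HLA-DMA those at -109 by Y letters at -79.

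There was 1 library per condition, with totals from 16381172 to 20622719 counts. A count of 3, taken as the floor, corresponded to 0.145 to 0.183 CPM, the count scaled to a library total of 1e6. With no replicates, every interval and p-value covers counting error only and compares libraries, not conditions. The line labels were checked on known markers. The summed level of 10 erythroid genes was 2375 and 9729 CPM in the K562 libraries and 17.7 to 26.1 CPM in the THP-1 libraries. That of 10 myeloid genes was 1764 to 1878 CPM in THP-1 and 90.5 to 101.5 CPM in K562. Of this sum, AZU1 gave 21890 of 38737 counts in THP-1 DMSO and 15193 of 31259 in THP-1 periplocin. LYZ gave 752 of 1663 counts in K562 DMSO and 1062 of 1499 in K562 periplocin. Mitochondrially encoded genes took 5.62% of counts in DMSO and 2.07% in periplocin for K562, and 5.24% and 3.92% for THP-1. Their part in the results below was not tested.

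Most of the 10 genes had different levels in the lines, and HLA-DMB and HLA-DPB1 were low in both. CIITA (ENSG00000179583; GRCh38 chr16:10866222-10943021, plus strand) had 48 counts (2.93 CPM) and 22 (1.33 CPM) in the DMSO and periplocin libraries of K562, against 244 (11.8 CPM) and 81 (4.57 CPM) in those of THP-1. In K562 it was the only one of the 10 genes besides CD80 above the floor in both libraries, and each THP-1 library was above each K562 library. CD74 (ENSG00000019582; chr5:150401637-150412929, minus strand) had 1 and 5 counts in the DMSO and periplocin libraries of K562, against 4554 (221 CPM) and 5044 (285 CPM) in those of THP-1.

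The class II chains followed the same split. HLA-DRA (ENSG00000204287; chr6:32439842-32445046, plus strand), the alpha chain of HLA-DR, had 0 counts in both K562 libraries, 221 (10.7 CPM) in THP-1 with DMSO and 44 (2.48 CPM) with periplocin. HLA-DRB1 (ENSG00000196126; chr6:32578769-32589848, minus strand), a beta chain of HLA-DR, had 0 counts in both K562 libraries, 1545 (74.9 CPM) in THP-1 with DMSO and 1452 (81.9 CPM) with periplocin. The alpha chain thus differed between the THP-1 libraries where the beta chain was nearly level. HLA-DPA1 (ENSG00000231389; chr6:33064569-33080775, minus strand), the alpha chain of HLA-DP, had 0 counts in both K562 libraries, 44 (2.13 CPM) in THP-1 with DMSO and 12 (0.677 CPM) with periplocin. HLA-DPB1 (ENSG00000223865; chr6:33075926-33087201, plus strand), its beta chain, had 0, 2, 13 and 2 counts in K562 DMSO, K562 periplocin, THP-1 DMSO and THP-1 periplocin, and was above the floor only in THP-1 DMSO (0.630 CPM).

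The peptide exchange chains were unequal. HLA-DMA (ENSG00000204257; chr6:32948613-32969094, minus strand), the alpha chain of HLA-DM, had 0 and 3 counts in the DMSO and periplocin libraries of K562, against 92 (4.46 CPM) and 57 (3.22 CPM) in those of THP-1. HLA-DMB (ENSG00000242574; chr6:32934629-32941070, minus strand), its beta chain, had 0 counts in both K562 libraries and 4 in each THP-1 library. HLA-DMB was therefore close to the floor wherever it was counted. The floor of 3 counts was 0.183 CPM in K562 DMSO and 0.181 CPM in K562 periplocin, and the exact 95% Poisson interval of a count of 0 reached 0.225 and 0.223 CPM.

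The costimulatory ligands did not follow the class II genes. CD80 (ENSG00000121594; chr3:119524293-119559602, minus strand) had 945 counts (57.7 CPM) and 739 (44.6 CPM) in the DMSO and periplocin libraries of K562, against 0 and 39 (2.20 CPM) in those of THP-1. CD86 (ENSG00000114013; chr3:122055366-122121139, plus strand) had 1 and 0 counts in the DMSO and periplocin libraries of K562, against 8 (0.388 CPM) and 416 (23.5 CPM) in those of THP-1. K562 libraries thus held CD80 with CD86 at or under the floor, and the THP-1 periplocin library held both.

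**Figure D2:**
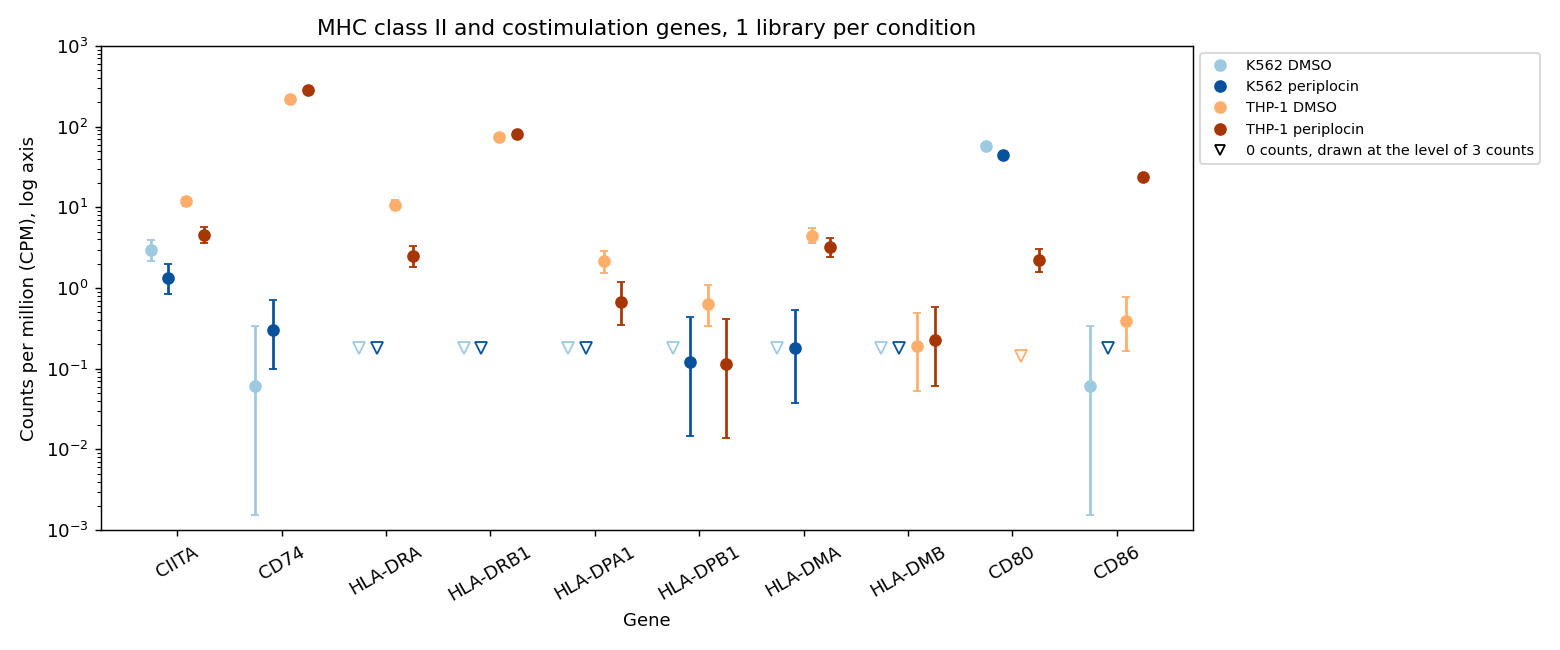
Level of each gene in CPM (log axis) in the 4 libraries, with exact 95% Poisson intervals of the count, and open triangles for a count of 0, drawn at the level of 3 counts. CD74 and HLA-DRB1 are at 74.9 CPM or more in both THP-1 libraries and at or near the floor in K562, HLA-DMB is near the floor in all 4 libraries, and CD80 is highest in K562 DMSO at 57.7 CPM and CD86 in THP-1 periplocin at 23.5 CPM.

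Some of these counts can hold reads of other genes. Exons of CD80 share 798 bases (24.9%) with TIMMDC1 on the opposite strand, which had 1015, 901, 1150 and 1268 counts in K562 DMSO, K562 periplocin, THP-1 DMSO and THP-1 periplocin. CD80 was at 0 in THP-1 DMSO although TIMMDC1 had 1150 counts there. Exons of CIITA share 2416 bases (11.6%) with DEXI on the opposite strand, which stood at 21.9, 16.4, 27.2 and 21.2 CPM in the same order. The level of DEXI was lower in the periplocin library of both lines, as that of CIITA was, and whether its reads entered the CIITA counts was not tested. HLA-DMA shares 55 exonic bases (2.17%) with BRD2 on the opposite strand, which had 6163 to 10346 counts per library, and HLA-DPA1 shares 96 exonic bases with HLA-DPB1. Whether the counting used strand is not given in the sources used here. HLA-DRB1 and HLA-DRB5 are near-identical copies among which reads can be split, so their single counts are uncertain, and class II genes vary so much between people that reads can also fail to match a reference.

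Per kilobase of transcript, the scale on which genes can be set side by side, CD74 led in THP-1 DMSO at 128 CPM per kb, followed by HLA-DRB1 at 61.0, HLA-DRA at 8.37, HLA-DMA at 5.12, CIITA at 2.54, HLA-DPA1 at 1.25 and HLA-DPB1 at 0.404 CPM per kb. The counting intervals of these neighbours did not overlap. CD86 at 0.143 and HLA-DMB at 0.139 CPM per kb followed, with intervals that overlapped each other and that of HLA-DPB1. In THP-1 periplocin CD74 at 165 and HLA-DRB1 at 66.7 CPM per kb again led, and CD86 stood next at 8.67 CPM per kb. HLA-DMA at 3.69 and HLA-DRA at 1.94 CPM per kb were below it without overlap. From CIITA at 0.982 through CD80 at 0.808, HLA-DPA1 at 0.397, HLA-DMB at 0.162 and HLA-DPB1 at 0.0723 CPM per kb, the interval of each gene overlapped that of the next.

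In K562 DMSO, CD80 stood at 21.2 CPM per kb and CIITA at 0.629 CPM per kb, and the other 8 genes had intervals that overlapped their neighbours. In K562 periplocin these levels were 16.4 and 0.285 CPM per kb, with the interval of CIITA overlapping that of HLA-DMA at 3 counts.

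The chains of a pair were not equal within a THP-1 library. HLA-DRB1 exceeded HLA-DRA per kb by 7.28-fold (95% counting interval 6.32 to 8.42) in DMSO and by 34.4-fold (25.5 to 47.5) in periplocin, and the intervals do not overlap. CD74 exceeded HLA-DRB1 by 2.10-fold (1.98 to 2.22) in DMSO and 2.47-fold (2.33 to 2.62) in periplocin, which is a far smaller difference between the libraries. HLA-DMA exceeded HLA-DMB by 36.9-fold (13.9 to 138.3) in DMSO and 22.9-fold (8.45 to 86.8) in periplocin, with overlapping intervals. In THP-1 periplocin CD86 exceeded CD80 by 10.7-fold (7.72 to 15.3).

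**Figure D3:**
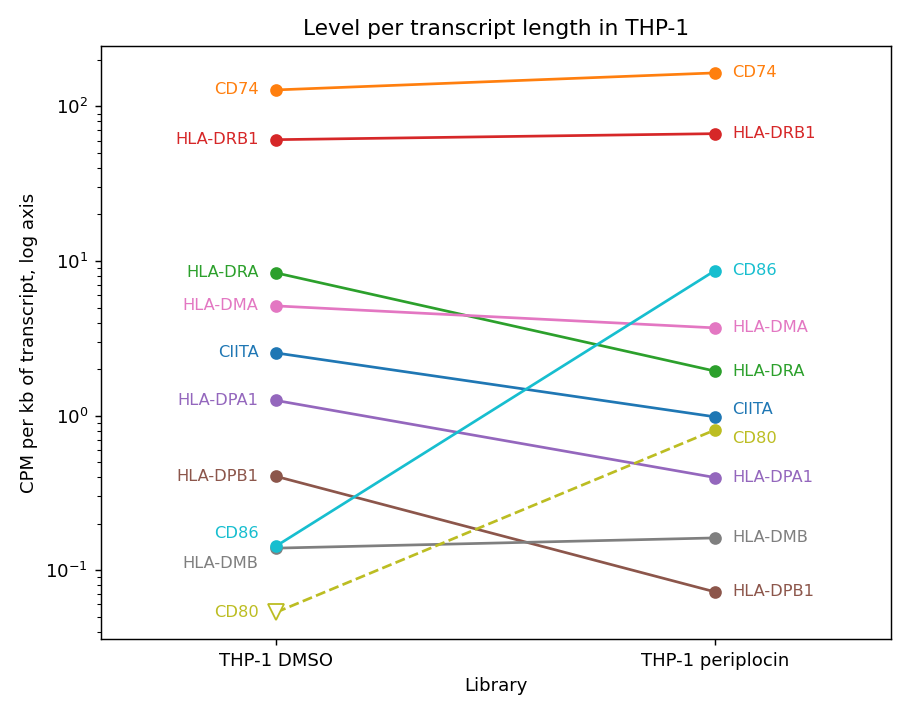
Level per kilobase of transcript (CPM per kb, log axis) of each gene in THP-1 DMSO and THP-1 periplocin, 1 line per gene, with an open triangle for CD80 at 0 counts, drawn at the level of 3 counts. CD74 (128 and 165) and HLA-DRB1 (61.0 and 66.7) stay on top, while HLA-DRA goes from 8.37 to 1.94 and CD86 from 0.143 to 8.67 CPM per kb.

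THP-1 DMSO was set against K562 DMSO to ask how the lines differ without the compound. A gene was called where edgeR's exact binomial test had a Benjamini-Hochberg adjusted p under 0.05 and the difference was at least 2-fold. In this comparison 41.1% of all 16431 tested genes were called, 21.7% higher and 19.5% lower in THP-1. Of the 10 genes, 7 were called higher in THP-1, 1 lower and 2 not. Against K562 libraries at 0, HLA-DRB1 was at least 445-fold higher, HLA-DRA at least 63.6-fold, HLA-DMA at least 26.5-fold, HLA-DPA1 at least 12.7-fold and HLA-DPB1 at least 3.74-fold, with the floor of 3 counts in the K562 library as the base. CD74 was at 4554 against 1 count, a ratio of 3933 with a counting interval from 706 to 155400. CIITA was 4.39-fold higher (3.21 to 6.11; log2 difference 2.13, SE 0.23), a call that was lost with an assumed dispersion of 0.16 (adjusted p 0.0808 by edgeR). CD80 was at least 365-fold lower in THP-1 DMSO. HLA-DMB at 4 against 0 counts and CD86 at 8 against 1 (ratio 6.91, 0.926 to 306.5) were not called. The median log2 difference over the 10 genes was 7.49, beside 0.05 over all genes above the floor. With each count at or under the floor set to 3, which gives a bound, the median over the 10 genes was 2.90. In these bulk libraries, fewer cells with a transcript and less of it per cell cannot be told apart.

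The same comparison between the periplocin libraries had 43.6% of 16636 genes called, 23.5% higher and 20.1% lower in THP-1. Of the 9 genes above the floor, 7 were higher, 1 was lower and 1 was not called. HLA-DRB1 was at least 510.3-fold higher, CD86 at least 146.2-fold, HLA-DRA at least 15.5-fold and HLA-DPA1 at least 4.22-fold. CD74 was 1064-fold higher (455.5 to 3277), HLA-DMA at 57 against 3 counts had a ratio of 20.0 (6.52 to 100), and CIITA was 3.88-fold higher (2.40 to 6.53), a call lost with an assumed dispersion of 0.16 (adjusted p 0.134 by edgeR) and with a log2 limit of 2. CD80 was 18.0-fold lower in THP-1 (13.0 to 25.5; log2 difference -4.16, SE 0.24). HLA-DMB was not called, and HLA-DPB1 had 2 counts in each library, under the floor. The median was 6.64 over these 9 genes, or 3.95 with bounds, beside 0.00 over all genes above the floor. CD86 was thus called between the lines with periplocin and not with DMSO, and CD80 was called lower in THP-1 in both. These comparisons share no library, and the difference between them was not tested. Each of them shares a library with each comparison of periplocin with DMSO.

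Markers of B cells, T cells and dendritic cells were counted beside these results. Summed over 6 B cell markers, the level was 0.671 and 0.483 CPM in K562, against 7.90 and 10.6 CPM in THP-1, where PAX5 gave 122 and 148 counts, while the defining B cell genes MS4A1 and BLK were at 0 in all 4 libraries. Summed over 6 T cell markers, it was 9.28 and 7.79 CPM in K562, against 0.0970 and 0.169 CPM in THP-1. CD3D alone gave 121 of the 152 counts in K562 DMSO and 105 of the 129 in K562 periplocin, while CD2 and CD8A were at 0 there. Summed over 8 dendritic cell markers, it was 14.4 CPM for K562 with DMSO and 2.60 with periplocin, against 3.35 and 4.68 for THP-1. LAMP3 alone gave 190 of the 236 counts in K562 DMSO and 13 of the 43 in K562 periplocin. CLEC9A, another of the 8, was at 0 in all 4 libraries.

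Periplocin was set against DMSO in K562, where 18.3% of 15919 genes were called, 8.18% higher and 10.1% lower. Of the 3 genes above the floor, CIITA fell, from 48 to 22 counts, by 1.15 on the log2 scale (SE 0.37; 2.22-fold lower, 1.32 to 3.87; adjusted p 0.00337 by edgeR's exact binomial test). This call was lost with an assumed dispersion of 0.04 between replicates (adjusted p 0.23). CD80 went from 945 to 739 counts, a log2 change of -0.38 (SE 0.07; fold 0.768, 0.696 to 0.846), which was under the 2-fold limit and not called. CD74 at 1 and 5 counts had a ratio of 4.91 (0.549 to 232.2) and was not called. The other 7 genes were at or under the floor in both libraries, so no difference in them was detectable at this depth. The median log2 change over the 3 genes was -0.38, beside -0.01 over all genes above the floor.

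In THP-1, 18.0% of 16020 genes were called in periplocin against DMSO, 8.28% higher and 9.76% lower. The costimulatory ligands rose and several class II genes fell. Of the 10 genes, 2 were higher, 4 were lower and 4 were not called. CD86 rose from 8 to 416 counts, 61.0-fold (30.7 to 142.3; log2 change 5.91, SE 0.51). CD80 rose from 0 to 39 counts, at least 15.2-fold (adjusted p 2.92e-13 by edgeR's exact binomial test). Both calls held with an assumed dispersion of 0.16, where the other 4 called genes lost theirs.

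HLA-DRA fell from 221 to 44 counts, 4.28-fold (3.09 to 6.06; log2 change -2.10, SE 0.24). CIITA, the coactivator of the class II genes, fell from 244 to 81 counts, 2.57-fold (1.99 to 3.34; log2 change -1.36, SE 0.18). HLA-DPA1 fell from 44 to 12 counts, 3.12-fold (1.62 to 6.50; log2 change -1.64, SE 0.47). HLA-DPB1 fell from 13 to 2 counts, a ratio of 0.180 (0.0198 to 0.797), with an adjusted p of 0.0281 by edgeR's exact binomial test. HLA-DPA1 and HLA-DPB1 were no longer called with an assumed dispersion of 0.04 (adjusted p 0.0718 and 0.161).

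The most abundant class II genes were not called. CD74 went from 4554 to 5044 counts, a log2 change of 0.38 (SE 0.03; fold between 1.25 and 1.35). HLA-DRB1 went from 1545 to 1452 counts, which after scaling for library size was 1.10-fold (1.03 to 1.19; log2 change 0.14, SE 0.05). Both intervals lie above 1 and under the 2-fold limit. HLA-DMA had a log2 change of -0.46 (SE 0.24; interval -0.96 to 0.03), and HLA-DMB had 4 counts in each library, with an interval from 0.218-fold to 6.30-fold. The median over the 10 genes was -0.16, beside -0.03 over all genes above the floor.

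Summed over the 6 HLA genes, THP-1 held 1919 counts in DMSO and 1571 in periplocin, a log2 change of -0.06 (-0.16 to 0.04), so the sum, which HLA-DRB1 dominates, hides the lower HLA-DRA, HLA-DPA1 and HLA-DPB1. HLA-DRB1 summed with HLA-DRB5 had 1917 and 1712 counts, a log2 change of 0.07 (-0.03 to 0.16). CD80 and CD86 together had 946 and 739 counts in the DMSO and periplocin libraries of K562, against 8 and 455 in those of THP-1. The log2 difference of their sum, THP-1 minus K562, was -7.10 in DMSO (-8.31 to -6.11) and -0.62 in periplocin (-0.80 to -0.45).

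CIITA was the only one of the 10 genes above the floor in all 4 libraries. Its log2 change was -1.15 in K562 and -1.36 in THP-1, and the THP-1 minus K562 difference was -0.21 (SE 0.41, -1.02 to 0.60), so a difference between the lines was not detectable at this depth. CD80 had a log2 change of -0.38 in K562 and was at least 15.2-fold higher in THP-1.

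**Figure D4:**
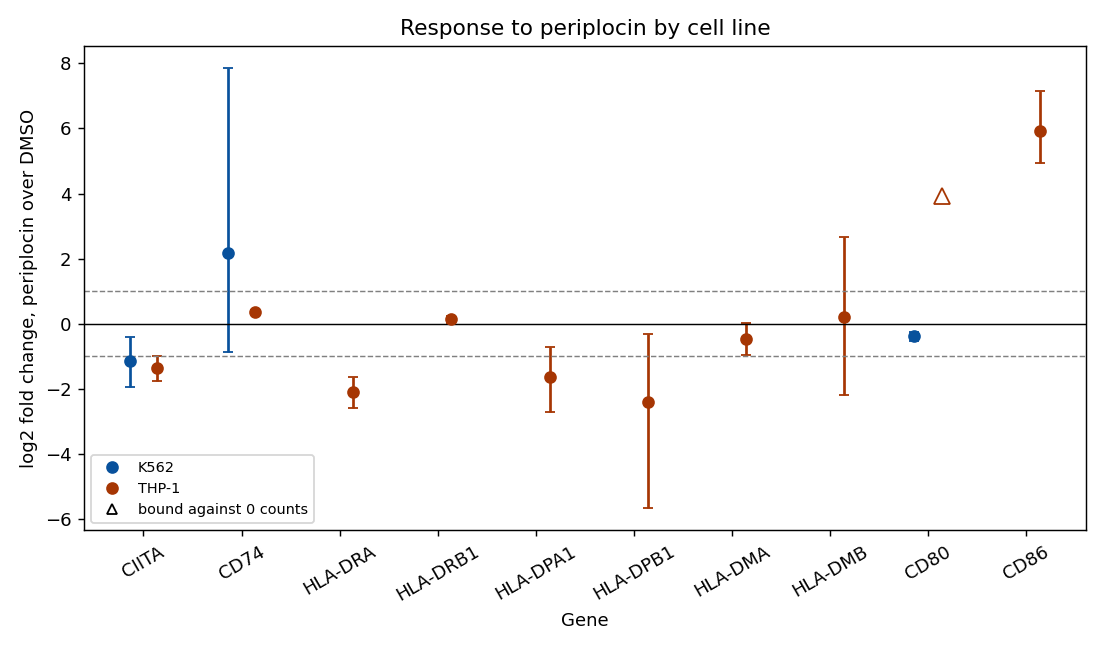
Log2 fold change of periplocin over DMSO for each gene in K562 and THP-1, with 95% counting intervals, open triangles for a bound against 0 counts, and dashed lines at the 2-fold limit. CIITA is lower in both lines (-1.15 and -1.36), and CD86 (5.91) and CD80 (at least 15.2-fold) are higher in THP-1, where HLA-DRA is lower (-2.10). Genes at or under 3 counts in both libraries have no point.

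The 4 libraries were also fitted together with cell line and treatment as terms, over 13584 genes that reached 10 counts in 2 or more libraries. With 1 residual degree of freedom, the error of this fit comes from how unlike the lines responded. Of the 10 genes, 7 passed the filter, and CD86, HLA-DPB1 and HLA-DMB did not. For the line term edgeR's quasi-likelihood test called 36.4% of genes (46.3% at an unadjusted p under 0.05) and 7 of these 7, with adjusted p-values from 8.44e-05 for CD74 to 0.0344 for CIITA. DESeq2 called 34.0% (41.2% unadjusted) and 5 of the 7, with CIITA at an adjusted p of 0.0597 and HLA-DPA1 at 0.0793. With genes of at least 1 count in any library, edgeR called 29.3% of 17197 genes for the line term and 8 of the 10, without HLA-DMB and HLA-DPB1.

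For the treatment term edgeR's quasi-likelihood test called 0 of 13584 genes (0.0%), with 1538 (11.3%) at an unadjusted p under 0.05, and 0 of the 7. At an unadjusted p under 0.05 it also had 0 of these 7, where CIITA had a p of 0.066 in this edgeR fit. DESeq2 called 126 of 11740 genes (1.07%; 8.62% unadjusted) and 0 of the 5 for which it gave an adjusted p. With genes of at least 1 count, edgeR called 2 of 17197 genes (0.0116%) and 0 of the 10, with CD86 at an adjusted p of 0.291. The periplocin differences of single lines given above therefore rest on the comparison of library pairs alone.

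Other chains of the class II family were described by their counts and medians. HLA-DRB5, a further DR beta chain, had 0 counts in both K562 libraries, 372 in THP-1 with DMSO and 260 with periplocin, a log2 change in THP-1 of -0.29 (SE 0.12) that was not called. HLA-DQB1, the beta chain of HLA-DQ, had 0, 0, 211 and 203 counts in K562 DMSO, K562 periplocin, THP-1 DMSO and THP-1 periplocin, and HLA-DQA1, its alpha chain, had 0, 0, 4 and 8. Per kb, HLA-DQB1 at 6.18 CPM in THP-1 DMSO stood above HLA-DQA1 at 0.122 CPM. HLA-DOB, a chain of the HLA-DM inhibitor HLA-DO, went the other way between the lines, with 56, 28, 1 and 11 counts in the same order. It fell in K562 by 1.02 on the log2 scale and was at 11 against 1 count in THP-1, a ratio of 12.9 (1.88 to 555.5). HLA-DOA, its partner, had 0, 1, 0 and 0 counts, and HLA-DQA2 and HLA-DQB2 had 0 throughout. Of the 4 chains above the floor, 2 were higher and 1 lower in THP-1 DMSO than in K562 DMSO. Between the periplocin libraries 3 were higher and 1 lower. Over all genes 21.7% were higher and 19.5% lower in DMSO, and 23.5% and 20.1% in periplocin. In the THP-1 response 1 was higher and 0 lower, with a median of 0.69, beside 8.28% and 9.76% of all genes. This median includes HLA-DQA1 at 4 and 8 counts and HLA-DOB at 1 and 11. The better counted HLA-DRB5 had a log2 change of -0.29, and HLA-DQB1 had 211 and 203 counts. This list is short, and the longer lists below also have the share called over all genes beside the count.

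Regulators of class II transcription, a list of 20 genes with the RFX and NF-Y subunits and the interferon-gamma pathway, had 10 called higher and 0 lower in THP-1 DMSO against K562 DMSO, with a median log2 difference of 0.97, where 21.7% of all genes were higher and 19.5% lower. Between the periplocin libraries the counts were 13 and 0, with a median of 1.16, beside 23.5% and 20.1% of all genes. IRF8, a transcription factor of monocytes and B cells, had 7 and 6 counts in K562 DMSO and periplocin and 12161 and 4323 in THP-1 DMSO and periplocin, and it fell in THP-1 by 1.26 on the log2 scale (SE 0.03). NLRC5, the CIITA relative that acts on class I genes, had 2, 5, 901 and 828 counts in the same order and was not called in either response. SPI1 had 339, 179, 3702 and 4377 counts. In the THP-1 response 3 regulators were higher and 2 lower of 20, with a median of 0.22, and the share over all genes was 8.28% higher and 9.76% lower, so these counts stand near it. Besides IRF8, IFNGR1, a chain of the interferon-gamma receptor, rose from 1210 to 2503 counts (log2 change 1.28), and IRF4 rose from 13 to 29 counts (log2 change 1.38). RFXANK, a subunit of the RFX complex, fell from 926 to 377 counts (log2 change -1.07), and it was named after its values were seen. In the K562 response 1 was higher and 1 lower of 20, with a median of -0.04, beside 8.18% and 10.1% of all genes. These were the kinases JAK2, which rose (log2 change 1.41), and JAK1, which fell (log2 change -1.03).

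Genes of antigen processing were a list of 19, with endosomal proteases and other proteins of endosomes, membranes and trafficking, such as CD82. Of this list, 8 were called higher and 1 lower in the K562 response (median log2 change 0.78). In the THP-1 response 6 were called higher and 0 lower (median 0.80). Over all genes 8.18% were higher and 10.1% lower in K562, and 8.28% and 9.76% in THP-1. CTSS, the cathepsin that trims CD74 in professional antigen-presenting cells, had 85 and 342 counts in K562 DMSO and periplocin and 4421 and 11805 in THP-1 DMSO and periplocin, and rose in both lines (log2 changes 1.98 and 1.65). LGMN, the asparagine endopeptidase, had 166 and 722 counts in K562, against 4 and 11 in THP-1. CTSB, another lysosomal cathepsin, rose by 1.84 in K562 and by 1.93 in THP-1 on the log2 scale. IFI30, the thiol reductase of endosomes, rose in THP-1 from 66 to 856 counts, 15.2-fold (11.8 to 19.9), and in K562 had a log2 change of 0.95 that was not called. CD82 (2.48), LGMN (2.09) and CTSF (2.02) had the largest log2 changes of the list in K562. In DMSO the list was split between the lines, with 7 of 19 higher and 8 lower in THP-1 (median 0.12), beside 21.7% and 19.5% of all genes. In periplocin 6 were higher and 5 lower (median 0.19), beside 23.5% and 20.1%.

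Other costimulatory and coinhibitory ligands, a list of 20, had 1 called higher and 3 lower of 16 above the floor in K562 (median log2 change -0.36). In THP-1 4 were higher and 1 lower of 20 (median 0.72, or 0.67 with bounds). These counts stand beside 8.18% higher and 10.1% lower of all genes in K562 and 8.28% and 9.76% in THP-1. VSIR, the inhibitory ligand VISTA, had 1738, 196, 2614 and 3905 counts in K562 DMSO, K562 periplocin, THP-1 DMSO and THP-1 periplocin and fell in K562 by 3.17 on the log2 scale. ICOSLG, the ligand of ICOS, had 727, 137, 525 and 603 counts and fell in K562 by 2.43 on the log2 scale. CD40, which receives T cell help, had 24, 5, 88 and 122 counts and fell in K562 by 2.26 on the log2 scale. In THP-1 none of these 3 passed the 2-fold limit. TNFSF18, the ligand of GITR, rose in THP-1 from 0 to 24 counts, at least 9.39-fold, CD48 rose from 0 to 6, at least 2.35-fold, and HHLA2 fell from 10 to 0, at least 2.84-fold. ICAM1, the adhesion ligand of LFA-1, rose in THP-1 from 63 to 506 counts (log2 change 3.23), and it was named after its values were seen.

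Between the lines, 7 of 17 of these ligands were higher and 4 lower in THP-1 in DMSO (median 0.57), and 12 of 20 were higher and 2 lower in periplocin (median 2.08, or 1.19 with bounds). The shares over all genes were 21.7% and 19.5% in DMSO and 23.5% and 20.1% in periplocin. CD70, a ligand of CD27, had 19 and 32 counts in K562, against 1189 and 1905 in THP-1. PDCD1LG2, a ligand of PD-1, had 0 in K562 and 7 in each THP-1 library. LGALS9, a ligand of TIM-3, had 39 and 81 counts in K562, against 2135 and 2737 in THP-1, and TNFSF14, also called LIGHT, had 6 and 1 in K562, against 276 and 419 in THP-1. Of 4 receptors of the CD28 family, the partners on T cells, CD28, CTLA4 and ICOS had 0 counts in all 4 libraries, and PDCD1 had 22, 13, 2 and 6.

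**Figure D5:**
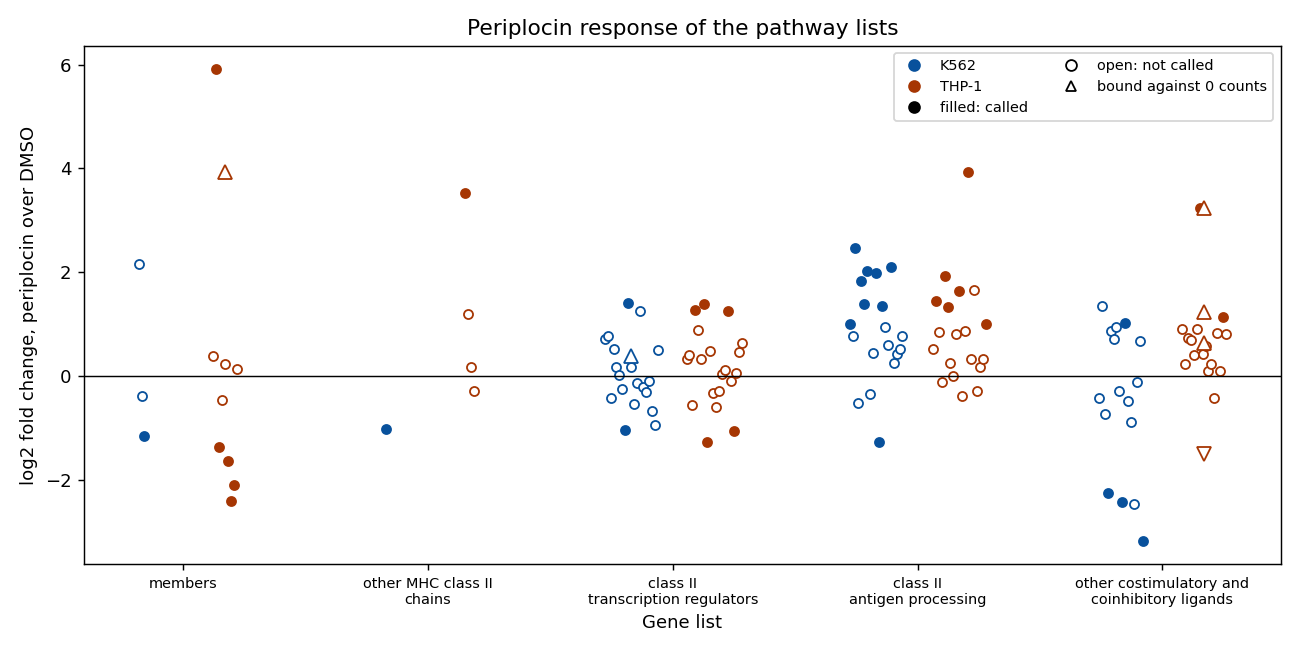
Log2 fold change of periplocin over DMSO for the 10 genes and 4 lists of the same pathway in K562 and THP-1, 1 point per gene above the floor, filled where called, with open triangles for bounds against 0 counts. The antigen processing genes lie mostly above 0 in both lines (medians 0.78 and 0.80), whereas the other ligands have a median of -0.36 in K562 and 0.72 in THP-1.

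The genes nearest in profile were found by the Euclidean distance between log2(CPM + 1) values, centred on their mean over the 4 libraries, among 14422 genes that reached 10 counts in any library. For HLA-DRA these were LZTS1 (distance 0.0641), LTC4S (0.0790), SPATA13 (0.139), SALL4 (0.163) and CCNA1 (0.173), and LTC4S had 0, 0, 215 and 40 counts where HLA-DRA had 0, 0, 221 and 44. For CD74 they were PTGER4 (0.105), CD4 (0.207), ZNF516 (0.272), PLEK (0.330) and ADGRL2 (0.346). For CD86 they included CCL2 (0.286), CYTIP (0.677), LPAR3 (0.905) and IGFBP3 (0.911). CCL2, a chemokine for monocytes, had 3, 0, 8 and 349 counts in K562 DMSO, K562 periplocin, THP-1 DMSO and THP-1 periplocin. These distances are descriptions over 4 libraries.

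Among the 8 dendritic cell markers, 4 were above the floor in at least 1 THP-1 library, and 3 of these were called higher. These 3 passed the floor only in periplocin, where they were high, so the 3 of 4 follows largely from the filter. Over all 16020 tested genes, without that filter, 8.28% were called higher. CD1C had 3 counts in THP-1 DMSO and 21 in periplocin, CLEC10A had 1 and 16, and LAMP3 had 3 and 12. In K562, LAMP3 had 190 counts in DMSO and 13 in periplocin. BATF3, the most abundant of the list in THP-1, had 56 and 34 counts and was not called, and the other 4 markers, among them FCER1A with 3 and 0 counts, were at or under the floor in both libraries. Their part in the CD86 result was not tested.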

How the data were processed

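The 4 libraries were poly-A, paired-end RNA-seq. The authors deposited a single table of expected counts for each gene in each library, without normalization or pooling. The submitters' processing notes list HISAT2, StringTie 1.3.1 and hg38. The counting program and annotation are not given in the sources used here. Sequencing platforms differ between the labels (Illumina) and the methods (T7).

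Counts were rounded to whole numbers. Symbols matched 20310 of 20348 identifiers. Coordinates and transcript lengths (of the transcript with the longest coding sequence) came from GENCODE 29 on GRCh38. CPM used library totals. Folds and calls used edgeR 4.0.16 in R 4.3.3: pairwise TMM factors and the exact binomial test (dispersion 0) over all genes that had a count in the pair, Benjamini-Hochberg adjusted. Intervals are exact 95% binomial (folds) or Poisson (CPM) and cover counting error only. The fit over 4 libraries (common biological coefficient of variation 0.317) had DESeq2 1.42.0 as alternative. Scripts were tested on simulated data.

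The members and lists were chosen with earlier results of these data known. For the lists of cell type markers, sums are given and single genes are named as examples. Other named genes are the 10 members, all of a list of 8 or fewer, and in longer lists the 3 called genes with the largest change per comparison. HLA-DOA, HLA-DQA2, HLA-DQB2, RFXANK and ICAM1 are outside this rule, and 1 gene it names is not reported here. Alternatives were other scalings, dispersions, filters, a prior count of 2 and a higher fold limit.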

Additional observations from a re-analysis of the deposited data

Results flagged for a closer look

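The sign of the periplocin difference was opposite in K562 and THP-1 for 9 genes, with counting intervals that exclude no change in both lines. This search covered the 10 members, the genes the naming rule gives, RFXANK and ICAM1, and left out the lists of cell type markers. Other genes of the lists met the same condition, among them CD276 with log2 changes of -0.72 and 0.74 and BTN2A2 with -0.43 and 0.90. A test of the difference between lines over replicates could not be made with 1 library per condition, so the difference was not tested. CD80 had a log2 change of -0.38 in K562 and was at least 15.2-fold higher in THP-1. ICAM1 had log2 changes of -0.29 in K562 and 3.23 in THP-1. CD40 had log2 changes of -2.26 in K562 and 0.70 in THP-1. ICOSLG had log2 changes of -2.43 and 0.43. VSIR had log2 changes of -3.17 and 0.81. HLA-DOB had log2 changes of -1.02 and 3.52, the latter from 1 against 11 counts. SPI1 had log2 changes of -0.95 and 0.47, JAK1 of -1.03 and 0.48, and JAK2 of 1.41 and -0.32, each K562 before THP-1.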

How the results depend on the processing

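No paired analysis was possible because there was 1 library per condition and the labels give no replicate numbers, and no replicate could be left out. No result reversed its sign. For the 10 genes, 270 values kept their direction and side of the threshold, and 14 lost their call, 7 at an assumed dispersion of 0.16, 3 at 0.04 and 4 at an absolute log2 limit of 2. Genes called between the lines went from 6761 to 3359 (dispersion 0.16) and 4258 (log2 limit 2) in DMSO, and from 7256 to 3512 and 4581 in periplocin. In K562, genes called in periplocin against DMSO went from 2908 to 1728 (dispersion 0.04), 100 (0.16) and 960.0 (log2 limit 2), and CIITA, the 1 called member, was lost in each, leaving 0. In THP-1, they went from 2890 to 1622, 88 and 969, and the called members from 6 to 2 at a dispersion of 0.16. The treatment term of the fit over 4 libraries went from 0 calls to 126 with DESeq2 and 2 with a filter of 1 count. Total counts in place of TMM shifted the THP-1 minus K562 log2 differences by a median of -0.12 in DMSO and -0.17 in periplocin. These medians are over genes with more than 100 counts in either library of the pair. HLA-DRB1 summed with HLA-DRB5, an alternative chosen after seeing the data, had a log2 change of 0.07 in THP-1 beside 0.14 alone. Counts of 4 or fewer limit HLA-DMB in all libraries.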
